A study of Mus musculus with 20 samples.

Results

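The Klf genes encode Krüppel-like transcription factors, a family that binds GC-rich and CACCC sequences through zinc fingers at the C-terminus. This account describes Suz12 at the ends of 10 of them: Klf1, Klf2, Klf3, Klf4, Klf5, Klf6, Klf9, Klf10, Klf11 and Klf13. Suz12 is a core component of the Polycomb repressive complex PRC2, which methylates lysine 27 of histone H3. The peaks of 8 Suz12 lists, joined wherever they shared 1 bp, gave 11943 regions, and 11 of these lay within 1 kb of either annotated end of a Klf gene of the list. In all, 7961 protein-coding genes had such a region. The genes were chosen with these peak lists and counts in view. All 10 have peaks in treated lists alone, so their higher treated counts follow in part from the choice. They are given as a description: counts at a threshold stand beside the share of all regions, and nothing is read from them. Klf7, Klf12 and Klf16, which also have peaks in treated lists alone, are not among the 10.

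The cells were E14, a wild-type line of mouse embryonic stem cells, grown on gelatin with serum and LIF, and Suz12 was mapped by ChIP-seq. Cells given 100 µM of DRB, which blocks the kinase that frees RNA polymerase II for elongation, for 12 h (DRB 12 h) were set against untreated cells (DRB 0 h). Cells given 10 µM of triptolide, which acts on initiation, for 9 h (triptolide 9 h) were set against their own untreated cells (triptolide 0 h), with 2 libraries in every group. All cells share 1 line and 1 genotype, and expression, which could check the cell type, was not analysed here. The other 12 of the 20 samples were not analysed here. The series calls its replicates biological without naming separate cultures, and the p-values reflect the spread of these libraries, which may be technical.

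In mouse embryonic stem cells, Klf2, Klf4 and Klf5 belong to the circuit of transcription factors that maintains self-renewal, and Klf4 is one of the factors used to reprogram somatic cells. PRC2 occupies mainly CpG-rich promoters of genes that are not transcribed. The family falls into groups by the cofactors its members bind: Klf1, Klf2, Klf4, Klf5 and Klf6 act largely as activators, Klf3 is a repressor that recruits CtBP, and Klf9, Klf10, Klf11 and Klf13 are repressors that recruit Sin3A.

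The annotated promoters of 4 genes show what the Klf starts have in common and where 1 of them departs. Shown are the 250 bases before the annotated start, 5′ to 3′ on the coding strand, with each CpG dinucleotide in capitals, from RefSeq on GRCm38.p6: Klf2 at chr8:72318812-72319061 (plus strand), Klf4 at chr4:55532476-55532725 (minus strand), Klf11 at chr12:24651121-24651370 (plus strand) and Klf1 at chr8:84901732-84901981 (plus strand).
Klf2: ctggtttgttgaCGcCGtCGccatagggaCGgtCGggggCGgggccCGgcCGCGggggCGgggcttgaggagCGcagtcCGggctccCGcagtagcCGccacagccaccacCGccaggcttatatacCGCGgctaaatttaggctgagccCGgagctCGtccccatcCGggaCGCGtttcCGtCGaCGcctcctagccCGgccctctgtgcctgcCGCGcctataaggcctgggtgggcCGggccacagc
Klf4: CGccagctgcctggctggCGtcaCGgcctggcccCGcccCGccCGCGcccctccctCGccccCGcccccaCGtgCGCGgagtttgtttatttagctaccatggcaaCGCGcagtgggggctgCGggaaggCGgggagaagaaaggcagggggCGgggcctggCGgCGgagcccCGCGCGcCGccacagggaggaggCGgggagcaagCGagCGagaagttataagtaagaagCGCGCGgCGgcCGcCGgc
Klf11: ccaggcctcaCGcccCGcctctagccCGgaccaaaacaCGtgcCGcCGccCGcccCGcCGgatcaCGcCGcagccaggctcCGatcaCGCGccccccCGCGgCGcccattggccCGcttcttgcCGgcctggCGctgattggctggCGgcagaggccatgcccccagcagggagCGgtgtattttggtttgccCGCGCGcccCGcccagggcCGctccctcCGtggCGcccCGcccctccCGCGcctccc
Klf1: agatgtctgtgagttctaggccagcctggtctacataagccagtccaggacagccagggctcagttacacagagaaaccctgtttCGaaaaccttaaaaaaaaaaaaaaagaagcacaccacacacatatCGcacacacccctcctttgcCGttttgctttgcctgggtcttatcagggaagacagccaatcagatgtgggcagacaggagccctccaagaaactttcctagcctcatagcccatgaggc

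CpG dinucleotides were dense at 7 of the 8 Klf starts in the promoter table and sparse at Klf1. Windows of 300 bases, which run 50 bases past the start, held 42 CpG at Klf11, 40 at Klf4, 32 at both Klf2 and Klf13, 29 at Klf3, 28 at Klf9, 23 at Klf6 and 3 at Klf1. The ratio of observed to expected CpG was 0.659 to 0.974 at the other 7 and 0.152 at Klf1. Klf5 and Klf10 have no entry. The median window held 30.5 CpG over the 8 Klf genes and 14 over all 17273 genes with a window. It held 24 over 1586 other genes (treated-only genes below). These have a region with peaks in treated lists of both drugs alone and no region in all 8 lists. Their further regions may have peaks in untreated lists. The median window held 21 CpG over 2328 genes with a region in all 8 lists and 7 over 11081 genes with no region. The Suz12 region covered all 300 bases at Klf2, Klf4, Klf9 and Klf13, 266 at Klf11, 171 at Klf6, 52 at Klf3 and none at Klf1. The letters CACCC, a box that Klf factors bind, were found on either strand in 62.5% of the Klf windows, 67.3% of those of the other treated-only genes, 72.2% of those of genes in all 8 lists and 58.7% of all windows. TATAA was found on either strand at Klf2 and Klf4, which is 25% of the Klf windows, and in 10.1% of those of the other treated-only genes, 13.6% of those of genes in all 8 lists and 23.0% of all windows. These matches describe the letters in the windows and nothing about binding.

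**Figure D1:**
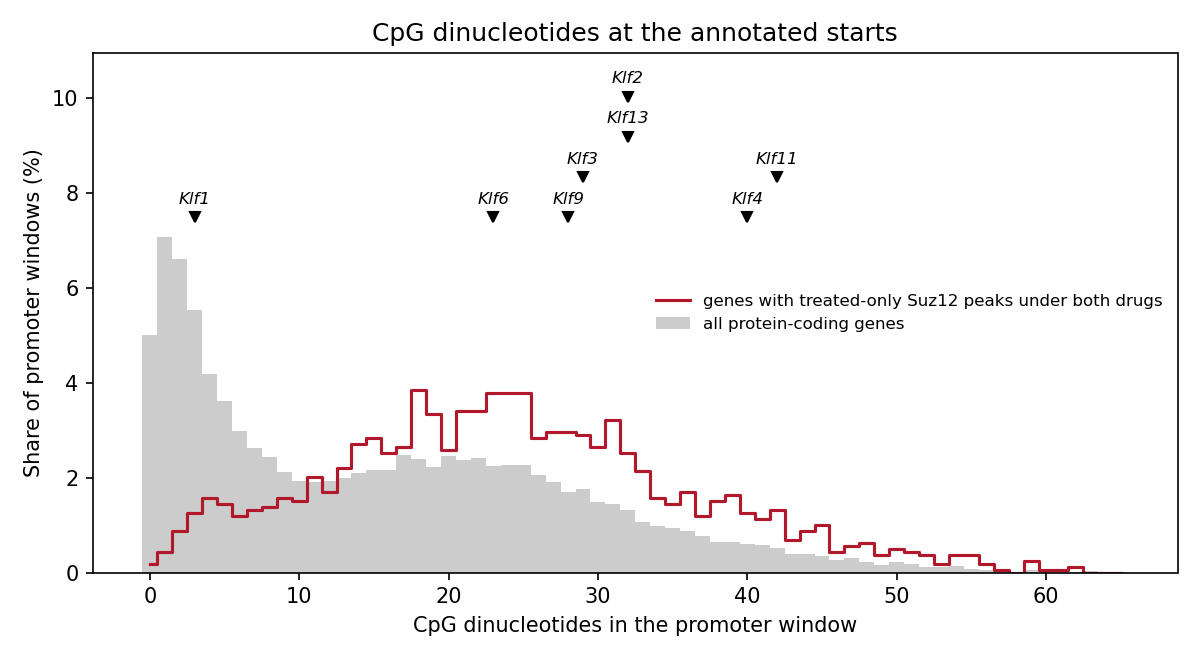
CpG dinucleotides (x axis, number per 300-base window at the annotated start) against the share of windows (y axis, percent). Grey bars are all protein-coding genes. The red line is other genes with a region of peaks in treated lists of both drugs alone and no region in all 8 lists. Triangles mark the 8 Klf genes, of which Klf1 has 3 and the others 23 to 42.

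The place of the regions relative to the start differed between the genes. At Klf2, Klf4, Klf6, Klf9 and Klf13 the region spanned the annotated start. At Klf2 it ran from 362 bp before the start to 2147 bp after it and covered 82.8% of this short gene. At Klf4 it ran from 1134 bp before to 2555 bp after the start and covered 47.9% of the gene, and at Klf13 it ran from 979 bp before to 1925 bp after. At Klf11 the region lay almost wholly upstream, from 1062 bp before the start to 15 bp after it. At Klf3 the main region ended 199 bp before the start. A second Klf3 region across the start (chromosome 5, 64803332 to 64803869) had a peak in 1 list, DRB 12 h replicate 1. At Klf1 the region began 336 bp after the start and ended at 1609 bp, within the gene. Klf5 and Klf10 have no strand in the table used. The Klf5 region covered the lower-coordinate end of the gene and the Klf10 region the upper-coordinate end. Exons and introns were not annotated in the table used. The regions of 8 genes thus covered an annotated end, and those of Klf3 and Klf1, at 199 and 336 bp, lay inside the limit of 1 kb. The nearest region outside that limit lay 3111 bp from Klf1.

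**Figure D2:**
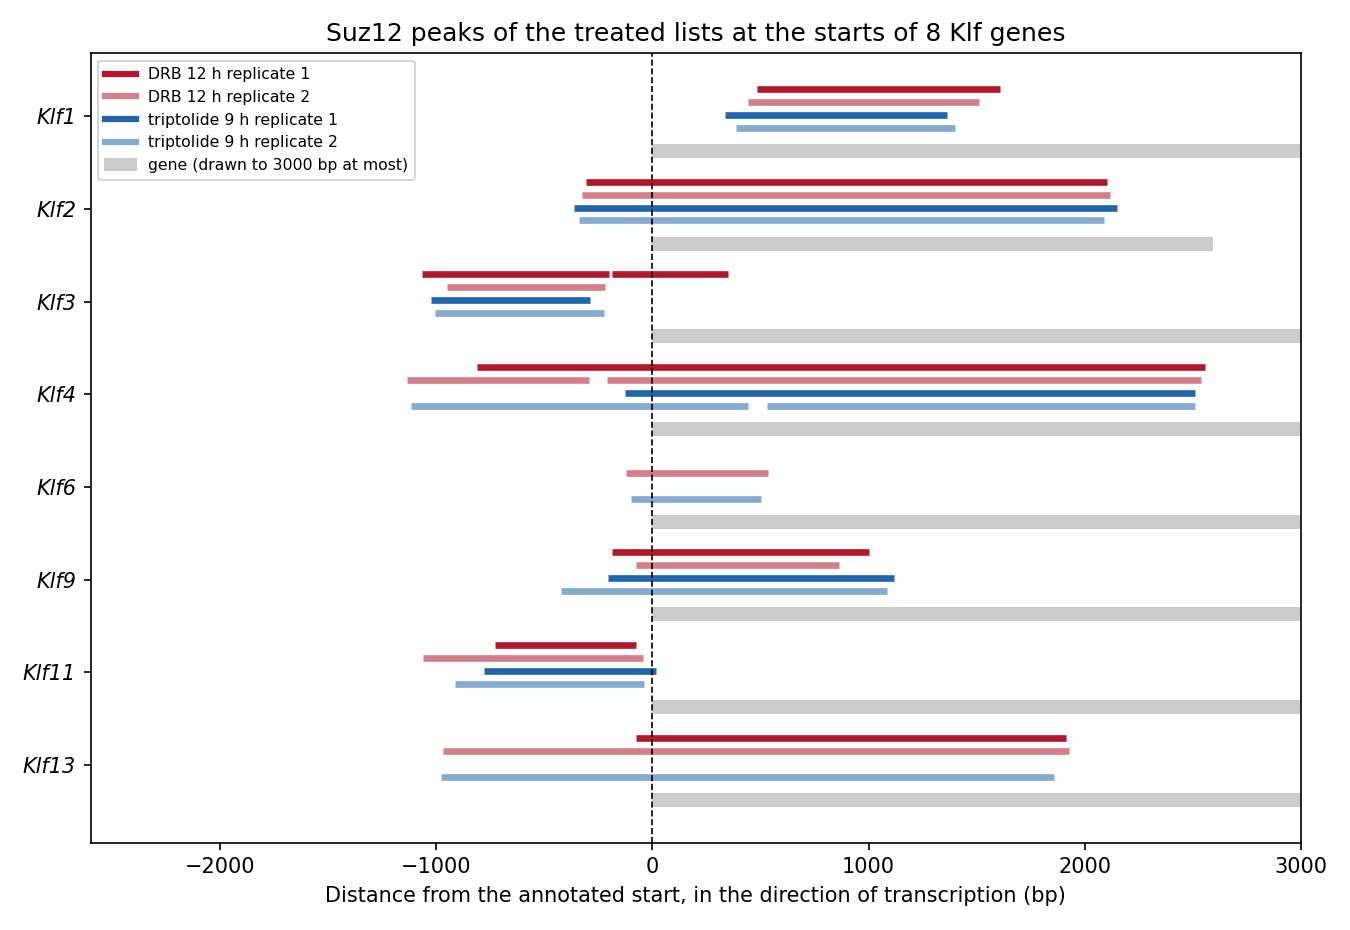
Peaks of the 4 treated lists at 8 Klf genes, as bars against the distance from the annotated start in bp (x axis, positive in the direction of transcription), with the gene in grey. The 4 untreated lists had no peak here. The peaks lie before the start at Klf3 and Klf11 (except the second Klf3 region and 15 bp at Klf11), after it at Klf1, and across it at the other 5 genes.

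Peaks at the Klf genes were found in treated lists and in no untreated list. DRB 12 h replicates 1 and 2 had peaks at 9 and 10 of the 10 genes, triptolide 9 h replicates 1 and 2 at 6 and 10, and each DRB 0 h and triptolide 0 h list at 0. Of 21627 protein-coding genes, 7427 and 6818 had a region of the DRB 12 h lists at an end, and 5026 and 6485 one of the triptolide 9 h lists. For the DRB 0 h lists the numbers were 3589 and 4262, and for the triptolide 0 h lists 3446 and 4292. The 6 Klf genes with a peak in all 4 treated lists were Klf1, Klf2, Klf3, Klf4, Klf9 and Klf11. The share of all genes with a peak in all 4 was not computed, and nothing is read from this number. Klf5, Klf10 and Klf13 were without a peak in triptolide 9 h replicate 1, and Klf6 was without one there and in DRB 12 h replicate 1. The triptolide 9 h replicate 1 list was the shortest treated one, with 7153 peaks against 10005 in replicate 2. CPM are the reads over a region's widest peak as a share of all reads counted over the regions, as counts per 1000000 after TMM scaling. By this measure the 2 triptolide 9 h libraries were close at the 4 genes: 18.6 and 20.2 CPM at Klf5, 12.7 and 12.3 at Klf6, 50.8 and 53.3 at Klf10, and 59.0 and 67.0 at Klf13. With only peaks of at least 1357 bp, the median width, 5 of the 10 genes had a peak in a treated list and 2, Klf2 and Klf4, in all 4. With every list held to its 5116 peaks of highest count the numbers were the same. For these limits the numbers over all genes were not computed.

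The Klf regions were 658 to 3690 bp wide, with a median of 1407.5 bp, against a median of 1216 bp for 1792 other regions at gene ends with peaks in treated lists of both drugs alone (treated-only regions below). Peak widths were alike over the treated lists at Klf2, from 2412 to 2510 bp. At Klf10 they were 2890 bp in DRB 12 h replicate 1, 2379 bp over 2 peaks in replicate 2 and 1162 bp in triptolide 9 h replicate 2.

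Suz12 CPM were higher in every treated than in every untreated library at the main region of all 10 genes. This lack of overlap held at 24.4% of all 11943 regions, with 25.2% the other way round, and follows here in part from the choice of genes. Summed over the 10 regions, the level was 680.2 and 609 CPM at DRB 12 h, against 232 and 235 CPM at DRB 0 h. It was 549 and 565 CPM at triptolide 9 h, against 205 and 234 CPM at triptolide 0 h. DRB libraries are given by index, ATCACG before TGACCA, since their names carry no replicate number of the labels, and triptolide libraries by replicate. The libraries had 1323928 to 7340033 reads over the regions. In these bulk samples more occupied cells and more Suz12 per cell cannot be told apart, and lane numbers in the column names, 1 and 4 for untreated and 3 and 6 for treated libraries, cannot be told apart from treatment.

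Klf2 and Klf4, both of the self-renewal circuit, had the highest counts per length in treated libraries and the largest log2 differences over both drugs. Under triptolide alone the value at Klf9 (1.66) was above that at Klf4 (1.61). Klf2 (chromosome 8, 72318700 to 72321209, GRCm38), also known for quiescence of T cells and for endothelial biology, had 130.4 and 132 CPM at DRB 12 h, against 21.4 and 24.9 CPM at DRB 0 h. It had 116 and 107 CPM at triptolide 9 h, against 23.2 and 25.3 CPM at triptolide 0 h. The 4 treated libraries stood far above the 4 untreated ones, and replicates lay close together. The log2 difference was 2.34 ± 0.12 over both drugs (SE), with 2.47 ± 0.17 under DRB and 2.20 ± 0.16 under triptolide, and 4 of the 11943 regions had a larger one.

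Klf4 (chromosome 4, 55529920 to 55533609) had 238 and 193 CPM at DRB 12 h, against 64.1 and 57.6 CPM at DRB 0 h. It had 175 and 171 CPM at triptolide 9 h, against 55.9 and 57.4 CPM at triptolide 0 h. The untreated libraries lay within 55.9 to 64.1 CPM, and the lowest treated library was at 171. The log2 difference was 1.72 ± 0.11 over both drugs (SE), with 1.83 ± 0.15 under DRB and 1.61 ± 0.15 under triptolide, and 60 regions had a larger one. Per length, Klf4 had 57.7 CPM per kb in treated and 17.5 in untreated libraries and Klf2 48.4 CPM per kb in treated and 9.44 in untreated libraries. The other 8 genes had 18.3 to 27.6 CPM per kb in treated and 7.25 to 15.9 in untreated libraries, so before treatment Klf2 was within the range of the others.

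**Figure D3:**
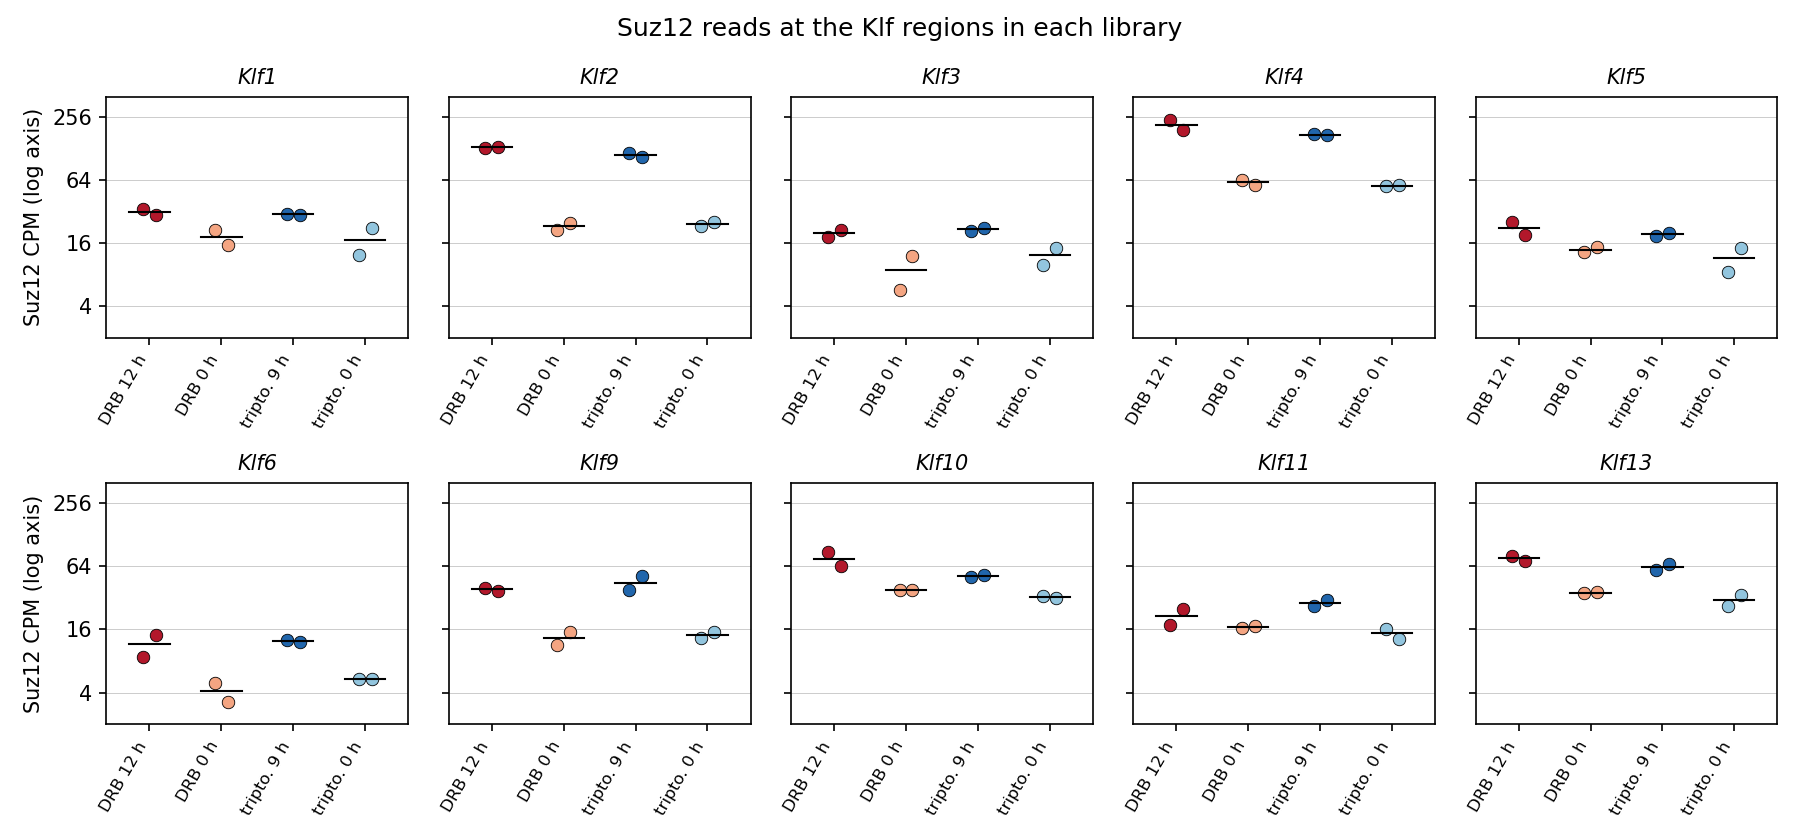
Suz12 CPM (y axis, log scale) at the main region of each of the 10 Klf genes, with 1 point per library and a bar at the group mean, by group (x axis, each treated group left of its untreated one). Treated points lie above untreated points in every panel, widely at Klf2 and Klf4 and narrowly at Klf11, where the lowest treated library is at 17.6 CPM and the highest untreated one at 17.2.

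The third Klf gene of the self-renewal circuit, Klf5, differed less. Klf5 (chromosome 14, 99298534 to 99299515), needed for the earliest lineages of the mouse embryo, had 25.6 and 19.3 CPM at DRB 12 h, against 13.1 and 14.6 CPM at DRB 0 h. It had 18.6 and 20.2 CPM at triptolide 9 h, against 8.60 and 14.4 CPM at triptolide 0 h. The groups did not overlap, but the log2 difference of 0.71 ± 0.20 over both drugs (SE) was among the smallest of the 10. It was 0.64 ± 0.29 under DRB and 0.77 ± 0.29 under triptolide.

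Klf6 (chromosome 13, 5861368 to 5862025), a factor induced by tissue injury, had few reads, from 6 to 114 per library. It had 8.80 and 14.3 CPM at DRB 12 h, against 4.93 and 3.29 CPM at DRB 0 h, and 12.7 and 12.3 CPM at triptolide 9 h, against 5.45 and 5.41 CPM at triptolide 0 h. Its replicates at DRB 12 h were further apart than those at triptolide 9 h. The log2 difference was 1.44 ± 0.28 (SE) over both drugs, the one with the largest error, and 1.68 ± 0.41 under DRB and 1.20 ± 0.37 under triptolide. Klf1 (chromosome 8, 84902318 to 84903591), the erythroid factor that switches on adult beta-globin, had 34.0 and 29.9 CPM at DRB 12 h, against 21.4 and 15.5 CPM at DRB 0 h. It had 30.5 and 30.0 CPM at triptolide 9 h, against 12.3 and 22.4 CPM at triptolide 0 h. At this gene without a CpG-dense start the groups did not overlap, and the log2 difference was 0.84 ± 0.19 (SE), with 0.85 ± 0.28 under DRB and 0.82 ± 0.27 under triptolide.

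The CtBP-binding repressor Klf3 (chromosome 5, 64802454 to 64803322), whose region another annotated gene, Gm38457, shares, had 18.4 and 21.2 CPM at DRB 12 h, against 5.75 and 12.0 CPM at DRB 0 h. It had 20.9 and 22.5 CPM at triptolide 9 h, against 10.0 and 14.4 CPM at triptolide 0 h. The 2 DRB 0 h libraries were far apart, with 7 and 51 reads, and the log2 difference over both drugs was 0.92 ± 0.21 (SE), with 1.00 ± 0.31 under DRB and 0.84 ± 0.29 under triptolide. Its second region, across the start, had 10.4 and 9.30 CPM at DRB 12 h, against 8.22 and 5.18 at DRB 0 h, and 4.44 and 7.91 at triptolide 9 h, against 4.30 and 5.41 at triptolide 0 h. There the treated and untreated libraries overlapped, and the log2 difference was 0.51 ± 0.32 (SE).

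Of the 4 Sin3A-binding repressors, Klf9 had the largest and Klf11 the smallest log2 difference over both drugs and under DRB, while under triptolide Klf10 had the smallest. Klf9 (chromosome 19, 23140803 to 23142343), a gene that responds to glucocorticoids and thyroid hormone, had 40.0 and 37.3 CPM at DRB 12 h, against 11.5 and 15.3 CPM at DRB 0 h. It had 37.7 and 51.8 CPM at triptolide 9 h, against 13.2 and 15.2 CPM at triptolide 0 h. The lowest treated library was at 37.3 CPM and the highest untreated one at 15.3. The log2 difference was 1.56 ± 0.17 over both drugs (SE), with 1.45 ± 0.24 under DRB and 1.66 ± 0.23 under triptolide. Klf13 (chromosome 7, 63936990 to 63939894), known as an activator of the chemokine gene Ccl5 in T cells, had 80.8 and 71.9 CPM at DRB 12 h, against 35.3 and 36.7 CPM at DRB 0 h. It had 59.0 and 67.0 CPM at triptolide 9 h, against 26.7 and 34.3 CPM at triptolide 0 h. All treated libraries stood above the highest untreated one, at 36.7 CPM, and the log2 difference was 1.06 ± 0.13 (SE), with 1.07 ± 0.18 under DRB and 1.06 ± 0.18 under triptolide.

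Klf10 (chromosome 15, 38299136 to 38302125), an early target of TGF-beta signalling, had 86.8 and 64.8 CPM at DRB 12 h, against 37.8 and 37.9 CPM at DRB 0 h. It had 50.8 and 53.3 CPM at triptolide 9 h, against 33.3 and 32.1 CPM at triptolide 0 h. Here the DRB 12 h libraries stood above the triptolide 9 h ones, and the untreated libraries lay close together. The log2 difference was 0.83 ± 0.13 over both drugs (SE), with 0.98 ± 0.19 under DRB and 0.67 ± 0.18 under triptolide. Klf11 (chromosome 12, 24650309 to 24651386), its close relative, which regulates insulin genes in beta cells, had 17.6 and 25.3 CPM at DRB 12 h, against 16.4 and 17.2 CPM at DRB 0 h. It had 27.1 and 30.6 CPM at triptolide 9 h, against 16.3 and 13.0 CPM at triptolide 0 h. At Klf11 the DRB libraries nearly met, and the log2 difference was 0.67 ± 0.18 over both drugs (SE), with 0.38 ± 0.25 under DRB and 0.96 ± 0.24 under triptolide.

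Read against all regions, all 10 main regions had higher counts over both drugs at an adjusted p under 0.05 (edgeR's quasi-likelihood test over 11943 regions), as had 27.9% of all regions. Under DRB the number was 8, without Klf5 and Klf11, beside 18.1% of all regions, and under triptolide it was 10, beside 19.3%. None was lower, beside 28.9% of all regions over both drugs, 19.2% under DRB and 21.9% under triptolide. With counts scaled to regions of all 8 lists, 47.4% of all regions were higher and 11.2% lower over both drugs, 30.5% and 5.03% under DRB, and 36.1% and 4.98% under triptolide. Scaled to the sum of all counts, 39% were higher and 18.7% lower over both drugs, 23.8% and 10.8% under DRB, and 28.5% and 11.1% under triptolide. All 10 Klf regions were called higher over both drugs and under triptolide with either scaling, and 9 under DRB, where Klf5 was added. Nothing is read from these counts, since the genes were chosen from the same libraries. The median log2 difference over both drugs was 0.99, with a range of 0.67 to 2.34. It was 0.05 over all regions and 0.67 over the 1792 other treated-only regions, with an interquartile range of 0.41 to 0.97, and of these 1273 (71%) were called higher. Klf2, Klf4, Klf9, Klf6 and Klf13 lay above that range, and Klf3, Klf1, Klf10, Klf5 and Klf11 within it. The median level of the 10 regions was 36.4 CPM in treated and 16.8 in untreated libraries, against 28.6 and 18.4 CPM over the other treated-only regions.

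Single libraries bear on the call within a drug. Under triptolide the number called higher was 5 without triptolide 9 h replicate 1, 4 without triptolide 9 h replicate 2 and 5 without triptolide 0 h replicate 1, beside 10.9%, 11% and 11.1% of all regions in those fits. Over both drugs the log2 difference at Klf5 was 0.53 without triptolide 0 h replicate 1, where it was not called, against 0.71 with all libraries. Without triptolide 0 h replicate 1 the triptolide log2 difference was 0.43 at Klf1 and 0.43 at Klf5, and without triptolide 0 h replicate 2 it was 1.29 at Klf1 and 1.17 at Klf5. Under DRB, without the DRB 0 h library of index TGACCA it was 0.57 at Klf1 and 1.80 at Klf3, and without the DRB 12 h library of that index 0.03 at Klf11. Within index ATCACG, the log2 ratio of DRB 12 h to DRB 0 h ran from 0.10 at Klf11 to 2.61 at Klf2. Within TGACCA it ran from 0.41 at Klf5 to 2.41 at Klf2. That all these ratios lie above 0 follows from the lack of overlap given above, and so in part from the choice of genes. The share over all regions was not computed.

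The difference between the drugs was also computed. The genes were chosen for peaks after both drugs, a choice that disfavours large differences, and a count of 0 is partly set by it. No difference passed the test between DRB (12 h, 100 µM) and triptolide (9 h, 10 µM), drugs whose doses and times differ. In edgeR's test of the DRB effect minus the triptolide effect 0 of 10 regions passed, beside 0.0167% of all regions. In DESeq2 0 passed, beside 0.0251% of all regions. An unadjusted p under 0.05 in edgeR was found at 0 of the 10, beside 1.62% of the 1792 other treated-only regions. The widest gap was at Klf11, with −0.58 ± 0.35 (SE, 95% interval −1.34 to 0.18, adjusted p = 0.999 in edgeR). It was 0.26 ± 0.24 at Klf2 (interval −0.25 to 0.77), 0.22 ± 0.21 at Klf4 (−0.24 to 0.68), 0.31 ± 0.26 at Klf10 (−0.26 to 0.88) and 0.49 ± 0.57 at Klf6 (−0.74 to 1.71). These intervals leave room for unequal effects at each of these genes, those with many reads included, and no equality is shown.

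The 2 untreated groups were also set against each other. The 10 genes have no peak in any list of either group, which disfavours large differences, and a count of 0 may be partly set by it. In edgeR, 0 of the 10 regions differed between DRB 0 h and triptolide 0 h, beside 0% of all regions. DESeq2 called 0, also beside 0%. An unadjusted p under 0.05 in edgeR was found at 0 of the 10, beside 2.51% of the 1792 other treated-only regions. The log2 differences ran from −0.53 ± 0.47 at Klf6 to 0.31 ± 0.32 at Klf5 (SE). At Klf2 it was −0.03 ± 0.19 and at Klf4 0.09 ± 0.16 (SE). No equality of the untreated groups is shown.

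**Figure D4:**
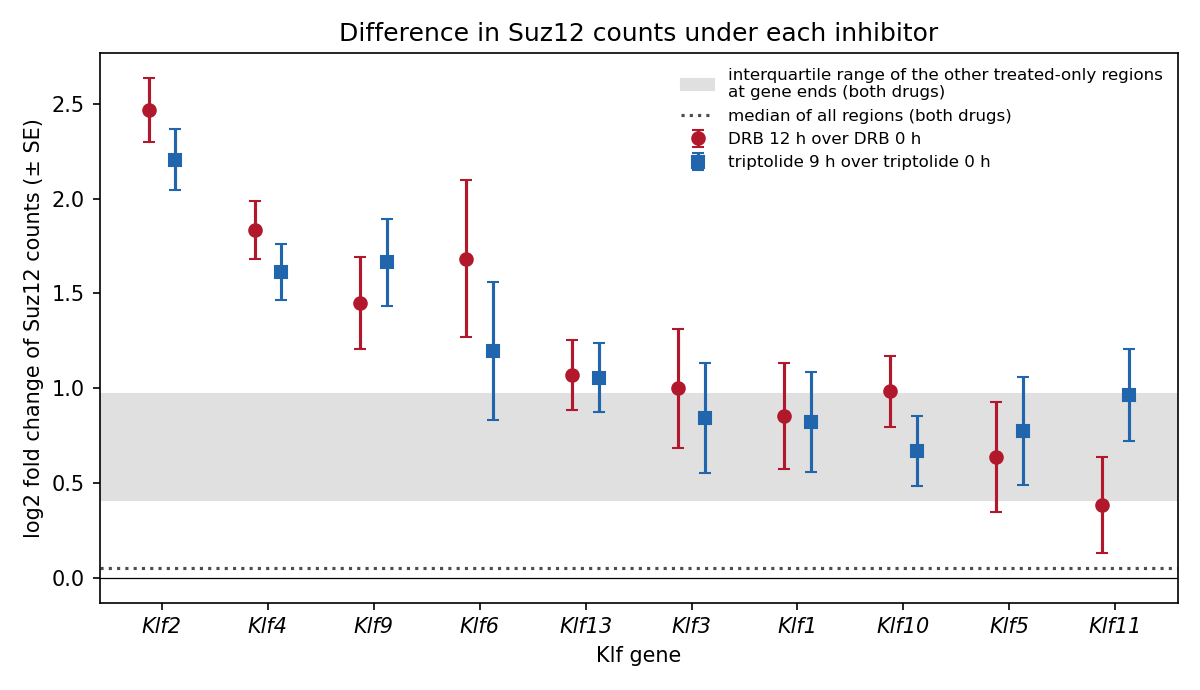
Log2 fold change of Suz12 counts (y axis, ± SE) at each Klf gene (x axis, ordered by the value over both drugs), for DRB 12 h over DRB 0 h (circles) and triptolide 9 h over triptolide 0 h (squares). The grey band is the interquartile range of the other treated-only regions at gene ends and the dotted line the median of all regions, at 0.05. Band and line are of values over both drugs, not of a single drug. Klf2, Klf4, Klf9, Klf6 and Klf13 lie above the band under both drugs, and the pair of values lies furthest apart at Klf11. Under DRB, Klf3 and Klf10 also lie above the band and Klf11 lies below it.

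Of 16 further Klf and Sp genes, which share the zinc finger type, 9 had a region at an end. Of these, 5 had peaks in all 8 lists and 3 in treated lists alone. Over both drugs 3 of the 9 were called higher and 4 lower, beside 27.9% and 28.9% of all regions, at a median log2 difference of 0.01 against 0.05 over all regions. With counts scaled to the regions of all 8 lists, 5 were higher and 1 lower, beside 47.4% and 11.2%, at a median of 0.36 against 0.39. The highest were Klf16 (1.25 ± 0.21, SE), with 53.2 CPM in treated and 21.3 in untreated libraries, and Klf15 (1.10 ± 0.14), which had a peak in 1 untreated list. The lowest were Klf14 (−0.69 ± 0.10), an imprinted gene with 199 CPM in treated and 321 in untreated libraries, and Sp9 (−0.51 ± 0.11), a forebrain and limb factor with 684 CPM in treated and 975 in untreated libraries. With the scaling to regions of all 8 lists, Klf14 was at −0.35 and still called lower, and Sp9 at −0.17 and not called (edgeR adjusted p = 0.0901).

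Of 18 other transcription factors of naive embryonic stem cells, 9 had a region at an end, 5 of them through treated lists alone. Of the 9, 8 were called higher and 0 lower over both drugs, beside 27.9% and 28.9% of all regions, at a median of 0.79 against 0.05 over all regions. Tcf7l1 was among the highest (1.32 ± 0.12, SE), and the lowest were Prdm14 (0.32 ± 0.11) and Tbx3 (0.14 ± 0.12), the one that was not called. With the scaling to regions of all 8 lists 9 were called higher, beside 47.4% of all regions. Part of these counts comes with regions that entered through treated peaks, and nothing particular to the list is read from them.

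The regions most like Klf2 in level over the 8 libraries were those of Fgf4, Gli2 and Pfn1, with root mean square differences of 0.227, 0.25 and 0.294 in log2(CPM + 1). Fgf4 is the autocrine growth factor of embryonic stem cells, Gli2 a transcription factor of Hedgehog signalling, and Pfn1 encodes the actin-binding protein profilin. All 3 had peaks in the 4 treated lists and in no untreated list. Those most like Klf11 were the regions of Tpgs1, Celsr3 and the pair Phf13 and Thap3, at 0.155, 0.156 and 0.17. They had peaks in 3, 2 and 3 treated lists and in no untreated list.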

How the data were processed

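The authors' tools were Bowtie and MACS, and their build was mm10 (GRCm38), per the submitters' processing notes; versions and the counting tool were not given in the sources used here. Every deposited list gives 1 library's peaks with raw counts from 13 libraries, per the file headers, as whole numbers without normalization. Of these columns 8 could be placed in the groups by name, and 5 were not used. Peaks sharing 1 bp were joined across lists, and a region took the counts over its widest peak. A gene took a region within 1 kb of either end in the RefSeq annotation of GRCm38.p6, and with several regions the one of highest mean CPM is its main region. Counts were tested in edgeR 4.0.16 (R 4.3.3) by quasi-likelihood, with TMM scaling, 4 group means, no filter and Benjamini-Hochberg adjustment over all 11943 regions, at 0.05. SE is the log2 difference over the root of F, and intervals use its degrees of freedom. No library totals were used, so levels and changes are relative. DESeq2 1.42.0 was an alternative. Libraries within each group differed by more than counting error (chi-square over its degrees of freedom 2.47 to 8.65). The members and lists were chosen with earlier results of these data known. All 10 Klf genes are named, of the 2 further lists the 2 highest and 2 lowest, and the 3 regions nearest in level to the Klf genes of highest and lowest difference (symbols of the Gm or Rik kind left out). 1 gene that this rule takes is not reported here. Klf7 and Klf12 were also named as genes outside the choice, after their values were seen. Protein sequences were not used here.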

Additional observations from a re-analysis of the deposited data

How the results depend on the processing

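The number of Klf regions called higher over both drugs, which the choice of genes largely fixes, was 10 with DESeq2's size factors (27.4% of all regions), the sum of all counts (39%), scaling to regions of all 8 lists (47.4%), the edgeR filter (27.9%), counts over the widest untreated peak (28%) and the DESeq2 test (23%). Scaling to the sum moved the median of all regions to 0.25 and scaling to regions of all 8 lists to 0.39, with Klf medians of 1.19 and 1.33. Without each library in turn, the Klf median over both drugs ran from 0.91 to 1.16, and the median of all regions from 0.04 to 0.07. Within a drug, calls were lost in some of these fits, at Klf regions and over all regions alike. The fits hold fewer libraries, and no other cause was tested. A lone library in such a fit is assumed to vary like the other groups. DESeq2 called 6 under DRB (14.5% of all regions) and 7 under triptolide (15.7%) and gave Klf6 no adjusted p there. Triptolide replicates share only a number. The replicate block within triptolide left 10 called over both drugs (27.4% of all regions) and 10 under triptolide (18.1%). The correlation of the deviations of same-numbered libraries was 0.39. An index block within DRB, added after seeing the data, left 10 over both drugs (32.2% of all regions) and 8 under DRB (23.5%). With only peaks of at least the median width, or with lists of equal length, 5 genes had a peak in a treated list and 2 in all 4. Windows of 0.5 and 2.5 kb and an overlap of 0.5 gave the main numbers. Of 758 alternative values for single genes over the 5 contrasts, 32 lost and 2 gained a call, and none that was called changed sign. In the drug difference and between the untreated groups no Klf region was called, so no call could be lost there. Uncalled values in those 2 contrasts changed sign in some fits. Most of the lost calls were under triptolide. The SE of the drug difference was largest at Klf6 (0.57), Klf3 (0.43) and Klf5 (0.41). The shares of depth and of replicate spread in it were not tested.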

Other observations

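Regions near the Klf genes but outside the limit of 1 kb had peaks in treated lists alone as well. A region 3111 bp from Klf1 (chromosome 8, 84908402 to 84910069), at an end of Dnase2a, which encodes a lysosomal nuclease, had peaks in all 4 treated lists. It had 50.1 CPM in treated and 17.4 in untreated libraries, a log2 difference of 1.58 ± 0.17 over both drugs (SE), against 0.84 ± 0.19 at Klf1 itself. Inside Klf13, a region at 63891372 to 63892132 on chromosome 7, 5021 bp from the lower-coordinate end, had peaks in 3 treated lists, with 19.2 CPM in treated and 10.9 in untreated libraries. A second one at 63896778 to 63897341 had a peak in 1 list, with 11.3 and 7.80 CPM in treated and untreated libraries.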
